A study of Rattus norvegicus with 6 samples.

Results

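The mitochondrial carrier family, SLC25, was followed in rat pancreatic beta cells after fasting. Members were all genes whose probe sets carry a single platform symbol of the form Slc25a with a number, or Ucp1, Ucp2 or Ucp3. The rule used no measured difference between fed and fasted cells. It found 42 genes on 61 probe sets, of 14217 genes with a single symbol and 31042 probe sets on the array. 29 members had a single probe set, and for the other 13 the probe set with the highest mean of the 6 arrays stood for the gene. Slc25a2, Slc25a6, Slc25a26, Slc25a40, Slc25a43, Slc25a47, Slc25a51 and Slc25a52 were listed as possible members and are not analysed here. 3 probe sets were left out under the rule because of their symbols (2 annotated with Slc25a51 repeated, 1 with Slc25a51l1).

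All cells came from male Wistar rats aged 10 weeks. In the fed group the rats ate ad libitum, and in the fasted group they had gone 24 h without food; the labels give no other difference between them. Each group had 3 biological replicates, each 1 array of beta cells sorted by flow cytometry from its own pool of 5 rats, so single animals cannot be followed. The sorted fraction held 92 ± 3% insulin-positive cells, was snap frozen at once, and all replicates were extracted together.

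Carriers of this family sit in the inner mitochondrial membrane, apart from a few placed in the outer membrane or in peroxisomes, and exchange small molecules between the cytosol and the matrix. In beta cells glucose raises mitochondrial ATP, which closes potassium channels and triggers insulin release. The family supplies that step from several sides. ADP/ATP and phosphate carriers feed the ATP synthase and export its product, while the shuttle carriers move NADH equivalents, malate, glutamate and citrate.

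The beta cell label was checked against marker genes. The insulin gene Ins1 ranged from 5719.4 to 6199.66 intensity units on the fed arrays, and none of the 7 beta cell markers measured passed the thresholds used below. Acinar cell transcripts, most of them for digestive enzymes, were bright as well. The 10 acinar markers summed to 54932 to 58885 on the fed arrays and 49830 to 57290 on the fasted arrays, and none passed. Reg1a had the largest change of these 10 (-0.61 ± 0.40). It measured 4171.59, 2070.61 and 4436.21 in fed and 2198.81, 1458.06 and 3378.83 in fasted cells, with overlapping groups. The study notes that very abundant transcripts can saturate the probes of such arrays, so neither these hormone nor these enzyme signals show that the levels were equal. Of all other cell type markers (4 alpha, 3 delta and PP, 3 duct, 6 endothelial and stromal, 6 leukocyte, 2 erythroid), only the duct marker Krt19 passed, higher after fasting by 0.70 ± 0.15 (log2, SE). The 3 duct markers summed to 91.97 to 102.15 in the fed and 118.48 to 142.16 in the fasted group. Most of that difference was Krt19, with means of 52.95 in fed and 85.73 in fasted cells. The duct markers Spp1 (0.19 ± 0.40) and Cftr (-0.25 ± 0.39) overlapped between groups. 5 of the 6 leukocyte markers were dimmer than the median probe set. The alpha cell hormone gene Gcg was at 7628.8 on fed replicate 2, beside 4426.07 and 3532.48 on the other fed arrays. Ppy (4270.3 beside 2567.14 and 2056.55), Irx1 (91.8 beside 16.58 and 6.91), Irx2, Ttr and Sst were also highest on that fed array, and Hhex was lowest. Of the leukocyte, endothelial and stromal markers only Cd74 (103.08 beside 31.21 and 17.08) and Col3a1 (208.49 beside 166.59 and 90.1) were highest on it. The erythroid markers Hbb and Alas2 and the duct marker Cftr were highest on that fed array as well, while Krt19 was lowest. Without that replicate Slc25a25, Slc25a33 and Slc25a15 were lower under the thresholds given below, and no carrier was higher. The part of other cells in the results was not tested, and in a bulk preparation fewer cells of a type and less RNA per cell cannot be told apart.

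Values are intensities on a linear scale, and changes are log2 ratios of fasted over fed from a fit over all 31042 probe sets (limma, 3 arrays per group). To be counted as lower or higher, a gene had to differ 1.5-fold or more with an unadjusted p below 0.05, the thresholds used in the study. The study analysed its arrays with dChip and reports a smaller share of transcripts as changed, nearly all of them lower. The calls here come from limma and need not match it. No probe set reached an adjusted p of 0.05 in this fit (limma, Benjamini-Hochberg), the smallest being 0.155, although 4622 had an unadjusted p under 0.05. In other settings 88 probe sets reached it with robust variance, 83 with a pseudocount instead of the floor, 124 with dim probe sets left out and 1 with a floor at the 25th percentile. All calls below are therefore unadjusted. Intensities of different probe sets cannot be set against each other, so only changes are compared between genes.

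Slc25a25 and Slc25a33 had the most negative changes of the family, both more than 2-fold in this fit. With scaling to the 75th percentile they were at -0.81 and -0.925, and with quantile normalization at -0.85 and -0.99, all under 2-fold. Their promoters are shown because, among the 37 members with an entry in the RefSeq promoter table (GRCr8), only these 2 hold the full cyclic AMP response element TGACGTCA, a palindrome bound by CREB and ATF factors, within 250 bases before to 50 after the gene's start. The element occurs in 1.83% of the 33469 promoters of that table. That share covers all entries, not only genes on the array, and was not matched for base composition. The element was 1 of 10 motifs searched on both strands after the changes were known. The 250 bases upstream of the start are printed in the direction of the gene, with the element in capitals. In Slc25a25 (minus strand) they lie at chr3:36116582-36116831 and the element spans 158 to 151 bases before the start. In Slc25a33 (minus strand) they lie at chr5:165502974-165503223 and the element spans 84 to 77 bases before it.
Slc25a25: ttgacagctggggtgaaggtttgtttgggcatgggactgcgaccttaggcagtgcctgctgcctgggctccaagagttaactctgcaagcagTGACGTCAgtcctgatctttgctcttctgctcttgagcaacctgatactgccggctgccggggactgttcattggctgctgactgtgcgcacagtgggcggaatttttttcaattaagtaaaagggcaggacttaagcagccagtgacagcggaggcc
Slc25a33: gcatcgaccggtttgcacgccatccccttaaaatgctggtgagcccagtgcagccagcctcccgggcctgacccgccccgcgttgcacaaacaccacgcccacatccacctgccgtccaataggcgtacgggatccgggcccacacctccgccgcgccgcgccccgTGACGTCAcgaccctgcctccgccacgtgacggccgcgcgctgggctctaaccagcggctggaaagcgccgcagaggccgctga

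The shorter sequence TGACGT, which the full element contains, was present in 7 of the 37 members (7.94% of all promoters), namely Slc25a1, Slc25a3, Slc25a21, Slc25a31 and Slc25a38 besides Slc25a25 and Slc25a33. The variant TGACGCA was found in Slc25a3 and Slc25a16 (1.90% of all promoters), and CACGTG in Slc25a31, Slc25a33 and Slc25a48 (6.42%). CCGGAAG, bound by ETS factors, was found in 6 members (8.75%), GCGCATG in 2 (3.77%), AAGGTCA in 1 (4.61%) and TATAAA in 3 (14.22%). GGGCGG was found in 25 (33.06%) and CCAAT in 19 (37.49%). A match describes the letters in this window and is not evidence that a factor binds there. The table has no entry for Slc25a30, Slc25a32, Slc25a36, Slc25a37 or Slc25a46.

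After the 24 h fast, 4 of the 42 carriers were lower and 1 was higher. Slc25a25, Slc25a33, Slc25a15 and Slc25a45 were lower and Slc25a48 was higher. Over all probe sets 8.43% were lower and 2.37% were higher, so that the family's 9.52% lower and 2.38% higher lay near the background. Among all 14217 genes at 1 probe set each, 1352 were lower and 326 higher. Over all probe sets the fit counted 2616 lower against 737 higher, but with each array scaled to its 75th percentile 1355 against 1419, and with quantile normalization 1505 against 1275. The median change of the 42 members was -0.26, beside -0.20 over all probe sets, and it stayed negative with quantile normalization (-0.06) and with scaling (-0.02). 28 members (66.7%) had a negative change, beside 66.3% of all probe sets.

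In 13 members (31.0%) every fasted array lay below every fed array, beside 17.6% of all probe sets, and in 4 (9.52%) every fasted array lay above, beside 5.24%. Of the 14217 genes at 1 probe set each, 3020 lay below in this way and 819 above. Brighter probe sets separate more often. Of the 31 members brighter than the median probe set 11 (35.5%) had all fasted arrays below the fed ones, beside 24.9% of probe sets above that brightness. Past the thresholds, 2 of these 31 members (6.45%) were lower, beside 10.7% of the probe sets above that brightness. 1 of the 31 was higher, beside 285 of those 15520 probe sets. The other 11 members were dimmer than the median probe set. Of these, Slc25a21, Slc25a31, Slc25a41, Slc25a45 and Ucp1 had 1 to 4 arrays under the floor of 3.27 intensity units set for the fit, and the other 6, among them Slc25a33, had none.

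**Figure D1:**
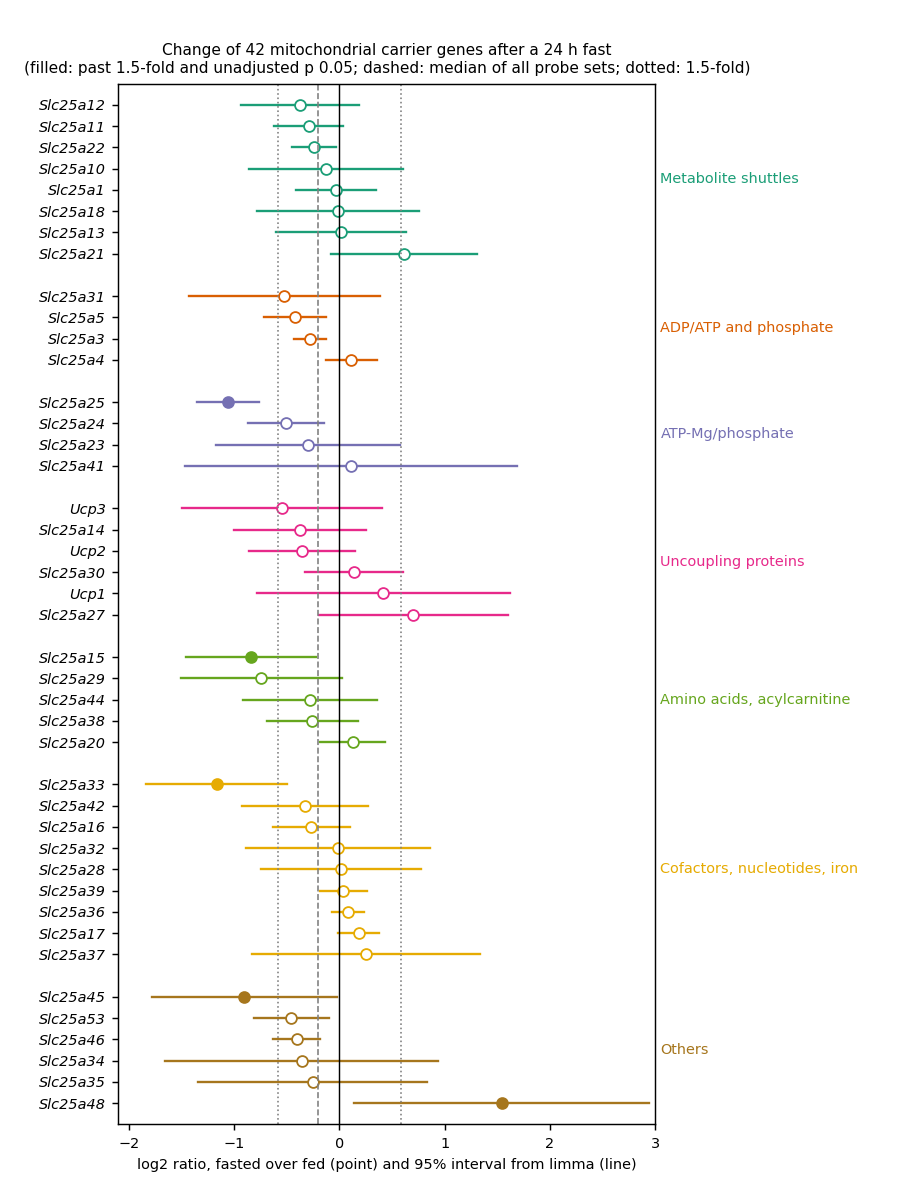
The x axis gives the log2 ratio of fasted over fed for each of the 42 carrier genes (y axis), with the 95% interval from limma as a line, in groups by substrate; filled points passed both thresholds, and the dashed line is the median over all probe sets, -0.20. Slc25a25 (-1.05) and Slc25a33 (-1.17) lie farthest to the left, and Slc25a48 (1.54), with a wide interval, farthest to the right.

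Slc25a25 showed the clearest difference. It is a calcium-dependent carrier that exchanges ATP-Mg for phosphate and so sets the amount of adenine nucleotide in the matrix. Its intensity was 169.89, 160.5 and 162.27 on the fed arrays and 69.6, 83.37 and 85.2 on the fasted arrays. The groups were far apart, and the lowest fed array had nearly double the intensity of the highest fasted array. The change was -1.05 ± 0.12 (log2, SE; 2.08-fold lower; unadjusted p = 0.000106, adjusted p = 0.155). It passed both thresholds in all 17 alternative settings tried. With scaling Slc25a25 was at -0.81 and with quantile normalization at -0.85. Its adjusted p was 0.0442 with robust variance, 0.0442 with a pseudocount and 0.0324 with dim probe sets left out (limma), and from 0.0553 to 0.523 in the other 14.

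The other ATP-Mg/phosphate carriers differed less. Slc25a24, the relative with the same calcium-binding arm, measured 212.61, 239.07 and 186.67 in fed cells and 137.56, 137.7 and 175.62 in fasted cells. These groups did not overlap, but the change of -0.50 ± 0.15 (unadjusted p = 0.0139) stayed under the fold threshold (-0.26 with scaling), which it passed only without fed replicate 3 or without fasted replicate 3. Slc25a23 was at -0.29 ± 0.36, with overlapping groups. A dimmer probe set of Slc25a23 ran the other way, at 19.74, 15.78 and 23.24 in fed and 48.53, 43.3 and 22.66 in fasted cells (0.91, unadjusted p = 0.0487), the last fasted array lying inside the fed range. The third probe set of this gene was below the floor on all arrays. Slc25a41 was dim and its groups overlapped (0.11 ± 0.65). The median of these 4 carriers was -0.40, or -0.20 relative to all probe sets.

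Slc25a33, which carries pyrimidine nucleotides into the matrix for mitochondrial DNA and RNA synthesis, measured 25.43, 29 and 23.52 in fed cells and 11, 11.83 and 11.81 in fasted cells. The fasted arrays were within 1 intensity unit of each other and lay well under the fed ones. The change was -1.17 ± 0.28 (2.24-fold lower; unadjusted p = 0.00509, adjusted p = 0.2145), and it passed in all 16 settings that kept the probe set. With scaling Slc25a33 was at -0.925 and with quantile normalization at -0.99. With its mean below that of the median probe set, the gene is absent from the setting that leaves out dim probe sets. Slc25a36, the other pyrimidine nucleotide carrier, differed little, with fed arrays from 1554.97 to 1600.29 and fasted arrays from 1612.94 to 1716.12 (0.08 ± 0.06, and 0.32 with scaling).

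Slc25a15, the ornithine carrier that links cytosolic and mitochondrial steps of the urea cycle and of polyamine and proline metabolism, measured 93.3, 68.35 and 121.68 in fed and 45.03, 47.7 and 63.07 in fasted cells. The groups did not overlap, but the highest fasted array came close to the lowest fed array. The change was -0.84 ± 0.26 (1.79-fold lower; unadjusted p = 0.0161, adjusted p = 0.2707). Slc25a15 was at -0.60 both with scaling and with quantile normalization. Of its 6 probe sets, 3 were lower (-0.84, -0.68 and -0.65), while the remaining 3 gave -0.27, 0.22 and 0.31 with overlapping groups. The call was lost when fed replicate 1, fed replicate 3 or fasted replicate 2 was left out (unadjusted p = 0.0504, 0.0541 and 0.0522 in limma), with linear means and with the mean of all 6 probe sets (-0.32).

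Slc25a45, whose substrate the lists leave unassigned, was dim. It measured 6.53, 7.57 and 11.7 in fed and 3.24, 6.43 and 4.22 in fasted cells, 1 array being under the floor. The change of -0.90 ± 0.36 (unadjusted p = 0.0461, adjusted p = 0.3305) passed in 4 of 16 alternatives. Without fed replicate 3 it was -0.66, without fasted replicate 1 -0.68, without fed replicate 2 -0.97 and without fasted replicate 3 -0.86, none of which passed, and with the floor at the 25th percentile it was -0.21.

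Slc25a48, in the same group of carriers, was the 1 member that was higher after fasting. It measured 12.03, 19.01 and 19.69 in fed cells and 88.59, 61.28 and 20.44 in fasted cells. Fasted replicates 1 and 2 were several times above every fed array, but fasted replicate 3 exceeded the highest fed array by less than 1 unit. The change was 1.54 ± 0.58 (2.91-fold higher; unadjusted p = 0.0361, adjusted p = 0.3109), and it passed in 8 of 17 alternatives. Leaving out any replicate but fasted replicate 3 removed the call (changes from 1.10 without fasted replicate 1 to 1.67 without fed replicate 3), while without fasted replicate 3 the change was 2.16. The dimmer probe set of this gene had 30.31 on fasted replicate 1 and 8.53 and 9.21 on the other 2 fasted arrays, beside 7.32 to 9.25 in fed cells (0.68, unadjusted p = 0.2647).

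**Figure D2:**
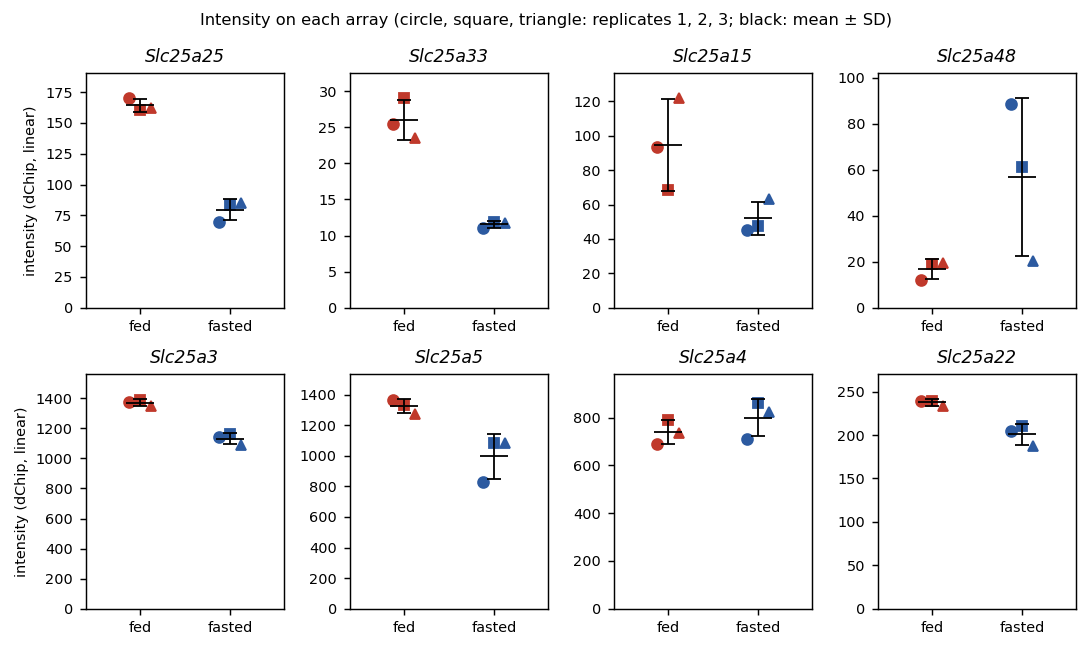
Intensity (y axis, linear, from 0) of 8 carriers on each fed and fasted array (x axis), with symbols for replicates 1, 2 and 3 and the mean ± SD in black. Slc25a25, Slc25a33 and Slc25a15 separate the groups, Slc25a48 is high on only 2 fasted arrays, Slc25a3, Slc25a5 and Slc25a22 are moderately lower on all fasted arrays, and Slc25a4 overlaps.

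The metabolite shuttles were next set beside the ADP/ATP and phosphate carriers. None of the 8 shuttle carriers and none of the 4 ADP/ATP and phosphate carriers passed the thresholds in either direction, beside 8.43% lower and 2.37% higher over all probe sets. The shuttle carriers had a median of -0.08 (0.12 above all probe sets) and the ADP/ATP and phosphate carriers one of -0.35 (0.15 below). With quantile normalization the medians were 0.13 and -0.21 and with scaling 0.16 and -0.11, so that the sign of the shuttle median depended on the scaling. The shuttle median minus that of the ADP/ATP and phosphate carriers was 0.27, 0.34 with quantile normalization and 0.09 with the floor at the 25th percentile. Each list holds a dim gene with arrays under the floor, Slc25a21 and Slc25a31. With dim probe sets left out the medians were -0.12 and -0.28 and the difference 0.15. The ADP/ATP and phosphate median was then 0.04 under that of the probe sets kept. The medians are descriptions of 8 and 4 genes, fewer where dim probe sets are left out.

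Slc25a3 brings phosphate into the matrix for ATP synthesis. It was among the steadiest members, at 1377.08, 1388.67 and 1347.53 in fed and 1143.04, 1159.91 and 1088.38 in fasted cells. All fasted arrays were lower, by 0.28 ± 0.06 on the log2 scale (1.21-fold; unadjusted p = 0.00416, adjusted p = 0.2059), which is well under the fold threshold. The change was -0.14 with quantile normalization and -0.04 (unadjusted p = 0.7806) with scaling.

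The ADP/ATP carriers gave unequal values. Slc25a5, a form known from proliferating cells, measured 1365.86, 1328.49 and 1275.21 in fed and 827.72, 1080.79 and 1081.27 in fasted cells (-0.42 ± 0.12, unadjusted p = 0.0125, adjusted p = 0.262). Slc25a4, the form best known from heart and muscle, measured 689.1, 788.49 and 736.12 in fed and 712.04, 860.4 and 824.02 in fasted cells (0.11 ± 0.10, unadjusted p = 0.3054). Fasted arrays of Slc25a5 were all below the fed ones, replicate 1 most, whereas those of Slc25a4 overlapped the fed range. With scaling to the 75th percentile the changes were -0.18 (unadjusted p = 0.1126) for Slc25a5 and 0.35 (unadjusted p = 0.0175) for Slc25a4, and with quantile normalization -0.28 and 0.26, so that which of the pair differed depended on the scaling.

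The log2 ratio of Slc25a5 over Slc25a4 within each array does not depend on a scaling factor for the array. It was 0.99, 0.75 and 0.79 in fed and 0.22, 0.33 and 0.39 in fasted cells. All fasted arrays lay below all fed arrays, with a difference of -0.53 between the group means. The ratio was formed after both changes had been seen, so it is a description with no test, and it does not show which gene moved. Slc25a31, the germ cell form, was dim, at 4.75, 6.67 and 8.7 in fed and 3.11, 4.07 and 6.99 in fasted cells (-0.52 ± 0.37), and it passed as lower without fasted replicate 3 (-0.84).

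Among the shuttles, Slc25a11 exchanges oxoglutarate for malate and Slc25a12 exchanges aspartate for glutamate, and together they form the membrane part of the malate-aspartate shuttle. Slc25a11 measured 141.21, 120.59 and 134.96 in fed and 93.5, 112.8 and 118.56 in fasted cells (-0.29 ± 0.14, unadjusted p = 0.0733). Slc25a12 measured 147.05, 142.42 and 145.57 in fed and 78.32, 145.35 and 122.63 in fasted cells (-0.38 ± 0.23, unadjusted p = 0.1546). With scaling they were at -0.05 and -0.14. The fasted arrays of Slc25a11 lay just below the fed ones, while fasted replicate 2 of Slc25a12 was inside the tight fed range. Without fasted replicate 1 the change of Slc25a12 was -0.12, and without fasted replicate 2 it was -0.57.

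Slc25a13, the second aspartate/glutamate carrier, differed between its probe sets. The brighter had 51.66, 67.06 and 51.39 in fed and 57.49, 42.4 and 75.43 in fasted cells, with no separation (0.02 ± 0.25). The dimmer had 37.93, 35.41 and 31.16 in fed and 10.85, 16.32 and 25.67 in fasted cells, with every fasted array below (-1.07, unadjusted p = 0.0272). With the mean of both probe sets the change was -0.53.

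Slc25a22, a glutamate carrier, measured 239.66, 239.55 and 233.42 in fed and 204.26, 210.2 and 187.4 in fasted cells. The groups did not overlap and the change was -0.25 ± 0.09 (unadjusted p = 0.0281, adjusted p = 0.2924), under the fold threshold and close to the -0.20 of all probe sets. With scaling it was -0.0048. Its relative Slc25a18 measured 17.9, 26.95 and 25.9 in fed and 24.25, 17.77 and 28.23 in fasted cells, with overlapping groups (-0.01 ± 0.32).

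The carriers of citrate and dicarboxylates showed no separation. Slc25a1, which exports citrate for lipid synthesis and pyruvate cycling, measured 74.88, 90.74 and 85.08 in fed and 75.22, 75.26 and 95.17 in fasted cells (-0.03 ± 0.16). Slc25a10, which exchanges malate and succinate for phosphate, measured 41.25, 28.72 and 27.21 in fed and 21.68, 35.55 and 32.29 in fasted cells (-0.12 ± 0.30). The signs of Slc25a1, Slc25a10 and Slc25a18 turned with quantile normalization and with scaling. Slc25a21, a carrier of longer oxodicarboxylates, was near the floor, at 2.03, 1.23 and 3.31 in fed and 5.67, 1.41 and 6.87 in fasted cells (0.62 ± 0.29, 3 arrays being under the floor). It passed as higher without fasted replicate 2 (0.93).

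**Figure D3:**
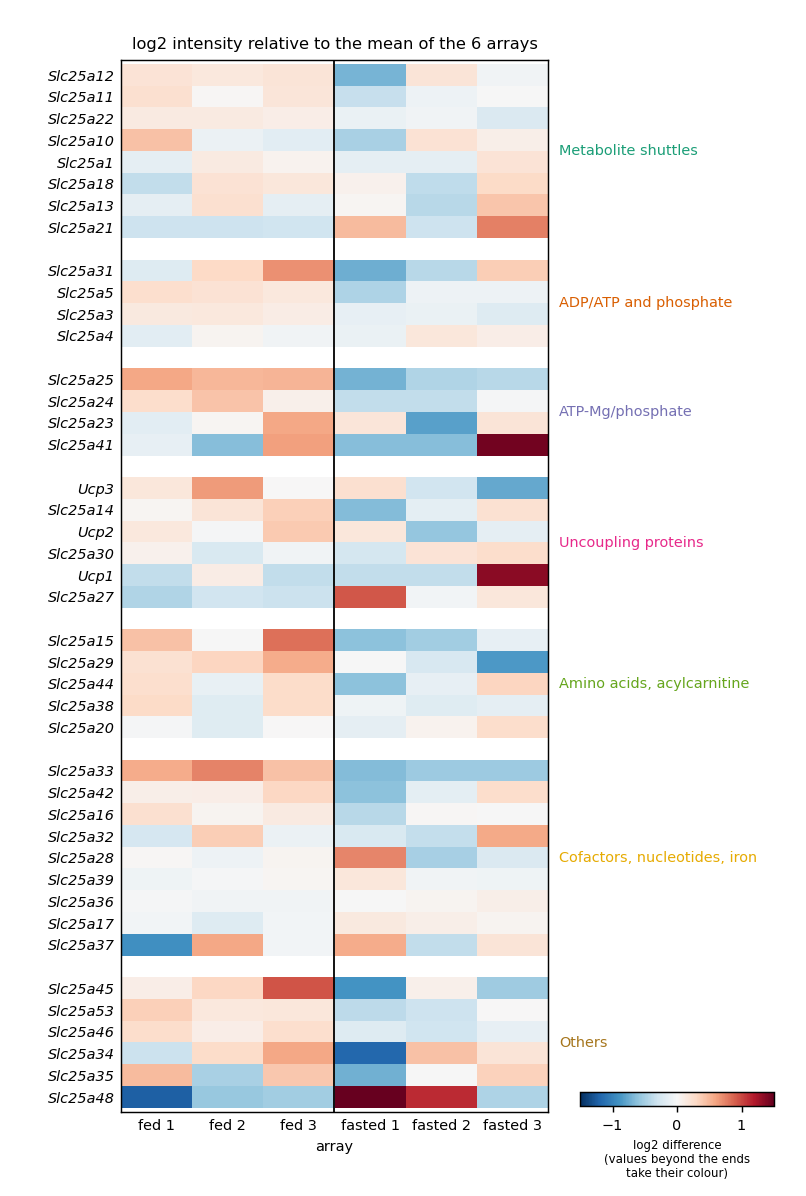
Each row is a carrier gene and each column an array (fed 1 to 3, then fasted 1 to 3); colour gives the log2 intensity relative to the gene's mean over the 6 arrays, red above and blue below. Slc25a25 and Slc25a33 change colour at the line between the groups, and fasted replicate 1 is the bluest column, with a family median of -0.21 beside -0.14 and 0.06 on the other fasted arrays.

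The arrays were not equally bright. The median intensity was 20.2 to 21.77 on the fed arrays and 17.105, 17.835 and 20.965 on fasted replicates 1, 2 and 3. The median of the 42 members relative to their own means was 0.07 to 0.14 on the fed arrays and -0.21, -0.14 and 0.06 on the fasted arrays, beside 0.07 to 0.11 and -0.25, -0.12 and 0.06 for all probe sets. Fed replicate 3, the dimmest fed array, had the highest family median of the fed arrays. Without fasted replicate 1 its median change was -0.11, beside -0.12 for all probe sets. The part of array brightness in the small changes was not tested.

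The uncoupling proteins and their relatives did not pass the thresholds. Ucp2, whose protein has been linked to lower ATP yield and to fatty acid response in beta cells, measured 594.28, 524.74 and 698.82 in fed and 600.62, 356.55 and 486.43 in fasted cells (-0.36 ± 0.21, unadjusted p = 0.1393). Its groups overlapped, since fasted replicate 1 was above 2 of the fed arrays. With arrays weighted by quality the gene passed as lower, in 1 of 17 alternatives. Ucp1, the brown fat form, was near the floor at 3.03, 4.54 and 2.48 in fed and 2.89, 2.14 and 10.8 in fasted cells, 4 arrays being under it. Ucp3, known from muscle, was dim at 17.48, 24.11 and 15.6 in fed and 18.3, 12.68 and 9.13 in fasted cells (-0.54 ± 0.39).

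Of the relatives, Slc25a14 measured 52.09, 58.31 and 65.32 in fed and 32.65, 46.26 and 59.93 in fasted cells (-0.38 ± 0.26); it passed as lower without fasted replicate 3 (-0.59). Slc25a30 measured 69.24, 56.78 and 64.15 in fed and 55.2, 76.7 and 79.72 in fasted cells (0.14 ± 0.19). Both overlapped between groups. Slc25a27 was dim, but its fasted arrays (22.79, 11.64 and 13.49) all lay above its fed arrays (8.77, 9.85 and 9.61), a change of 0.70 ± 0.37 (unadjusted p = 0.105) that its other 2 probe sets did not show (-0.25 and -0.31). The median of the 6 genes was -0.11, or 0.09 above all probe sets.

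Carriers of amino acids and acylcarnitines, apart from Slc25a15, stayed short of the thresholds. Slc25a29, a carrier of basic amino acids, had fed arrays of 28.63, 30.33 and 35.9 and fasted arrays of 24.31, 20.56 and 13.39 (-0.74 ± 0.31, unadjusted p = 0.0548), and it passed in 5 of 17 alternatives, among them that without fasted replicate 1 (-0.92). Slc25a44 (branched-chain amino acids) was at -0.28, Slc25a38 (glycine, for heme synthesis) at -0.26 and Slc25a20 (acylcarnitines) at 0.13, all with overlapping groups. With scaling they were at -0.036, -0.016 and 0.37. The median of the 5 was -0.28.

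The 9 measured carriers of cofactors, nucleotides and iron had a median of 0.01, or 0.21 above all probe sets. Apart from Slc25a33 their changes ran from -0.33 (Slc25a42, coenzyme A) to 0.25 (Slc25a37, iron), and none passed. Slc25a16, linked to coenzyme A, was at -0.27 with fasted arrays below the fed ones, and at -0.028 with scaling. The peroxisomal carrier Slc25a17 had fasted arrays from 401.57 to 429.6, above the fed range of 340.77 to 378.14 (0.18 ± 0.08, unadjusted p = 0.0617), and was at 0.42 with scaling. Slc25a39 (glutathione) was at 0.04 and the dim Slc25a32 (folate) at -0.02. Slc25a28, an iron carrier, had a mean change of 0.01 although fasted replicate 1 (225.62) was far above, and the other 2 fasted arrays (95.96 and 116.04) below, the fed range of 128.33 to 138.71.

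Of the remaining carriers, Slc25a46, an outer membrane protein tied to mitochondrial shape, measured 368.14, 330.29 and 364.65 in fed and 268.54, 250.31 and 282.88 in fasted cells. The groups did not overlap, and the change of -0.41 ± 0.09 (unadjusted p = 0.00368, adjusted p = 0.1994) was under the fold threshold. With scaling it was -0.17 (unadjusted p = 0.1872). Its dimmer probe set, at 175.81, 151.39 and 153.71 against 58.31, 105.63 and 131.67, passed it (-0.78, unadjusted p = 0.0401). Slc25a53 was at -0.45 ± 0.14 (unadjusted p = 0.0192), also without overlap, and at -0.21 with scaling. Slc25a34 (-0.36) and Slc25a35 (-0.25) were dim and overlapped.

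Counted over any probe set of a gene, 6 members were lower, Slc25a13 and Slc25a46 being added, and 2 were higher, Slc25a23 being added to Slc25a48. These are 14.3% and 4.76% of the family, beside 12.4% and 3.24% of all 14217 genes counted in the same way. None of the 13 genes with several probe sets had calls in opposite directions, but Slc25a13, Slc25a23 and Slc25a46 were called on a dimmer probe set and not on the brightest.

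**Figure D4:**
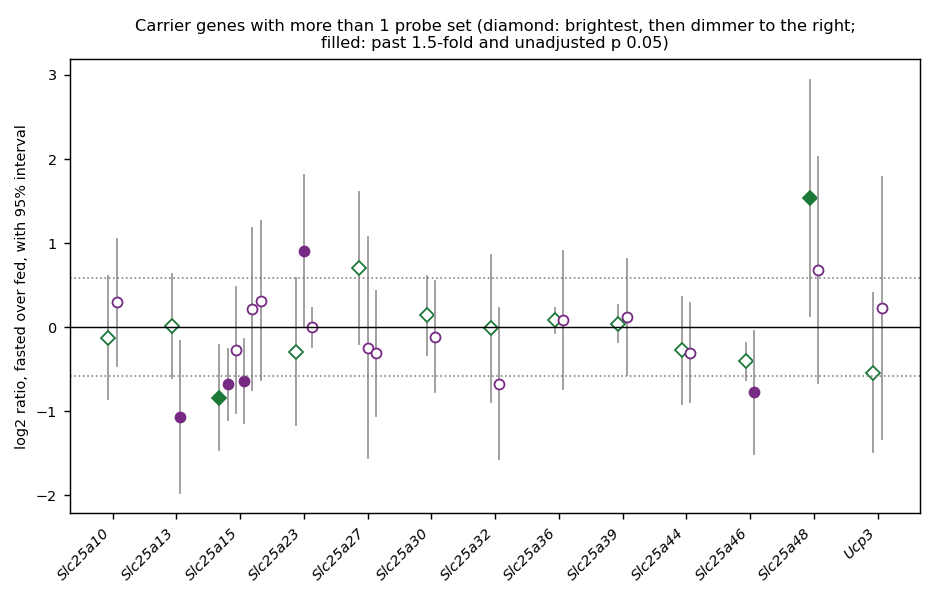
Log2 ratio of fasted over fed with its 95% interval (y axis) for every probe set of the 13 carrier genes that have more than 1 (x axis), the brightest as a diamond and the dimmer ones as circles to its right; filled symbols passed both thresholds. 3 of the 6 probe sets of Slc25a15 were lower, while Slc25a13 and Slc25a46 were lower only on the dimmer probe set.

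Genes that work with the carriers were read from lists chosen by function, with earlier results of these data known. Of the 6 enzymes of the malate-aspartate and glycerol phosphate shuttles all had negative changes (median -0.33), and 1 was lower. This was Got1, the cytosolic aspartate aminotransferase, at 127.26, 160.49 and 147.6 in fed and 38.76, 80.05 and 109.17 in fasted cells (-1.05 ± 0.38, unadjusted p = 0.0304, adjusted p = 0.2969). Its fasted arrays were all lower but differed among themselves by more than the fed ones did. The call was lost without any 1 fed replicate, without fasted replicate 2, with the floor at the 25th percentile and with linear means, and without fasted replicate 1 the change was -0.63. The brightest of the list, cytosolic malate dehydrogenase Mdh1 and mitochondrial aminotransferase Got2, were at -0.29 ± 0.09 and -0.03 ± 0.08. With scaling they were at -0.052 and 0.21.

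All 12 measured genes of pyruvate entry and of pyruvate, citrate and glutamate cycling had negative changes too (median -0.24, or 0.04 under all probe sets), beside 66.3% of all probe sets. Among the 12, Mpc1 (-0.0077) and Idh2 (-0.0044) were near 0, and 1 gene was lower. Pck2, the mitochondrial phosphoenolpyruvate carboxykinase, measured 224.45, 193.18 and 241.11 in fed and 128.19, 135.36 and 171.97 in fasted cells (-0.60 ± 0.15, unadjusted p = 0.00685). Its groups did not overlap, but the change fell short of 1.5-fold without fed replicate 1 (-0.58) or 3 (-0.53) or fasted replicate 1 (-0.52) or 2 (-0.56), and with quantile normalization (-0.43) or scaling (-0.36). The brightest, Acly (citrate cleavage) and Glud1 (glutamate dehydrogenase), were at -0.16 ± 0.12 and -0.25 ± 0.09. With scaling they were at 0.085 and -0.0053, so the count of negative changes depended on the scaling.

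Among 12 partners in nucleotide and phosphate exchange, Ckb, the brain-type creatine kinase that buffers cytosolic ATP, was lower. It measured 244.3, 203.19 and 265.96 in fed and 57.24, 126.52 and 128.89 in fasted cells, every fasted array being far below the fed ones (-1.27 ± 0.33, unadjusted p = 0.0082, adjusted p = 0.2296), and it passed in all 17 alternatives. With scaling Ckb was at -1.03 and with quantile normalization at -1.08. The outer membrane channel Vdac2 was at 0.03 ± 0.08 and Mtch1, an outer membrane relative of the carriers, at 0.18 ± 0.21. The list's median was -0.13.

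Of 10 genes for the import of carrier proteins, 1 was lower. Timm10b, a small chaperone of the inner membrane insertion complex, measured 150.22, 109.95 and 129.13 in fed and 84.72, 74.65 and 74.33 in fasted cells (-0.73 ± 0.15, unadjusted p = 0.00279, adjusted p = 0.1922), without overlap; it fell short of 1.5-fold with quantile normalization (-0.52) and scaling (-0.49). Timm8b and Timm29, the brightest of the list, were at -0.10 ± 0.14 and -0.03 ± 0.13.

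Of the 4 carnitine acyltransferases, which work on either side of the acylcarnitine carrier Slc25a20 (0.13 ± 0.13), 2 were lower. Cpt2, which releases acyl-CoA inside the matrix, measured 176.53, 172.88 and 198.16 in fed and 113.19, 119.57 and 110.31 in fasted cells, 2 narrow groups well apart (-0.67 ± 0.10, unadjusted p = 0.000528, adjusted p = 0.162). The change was under 1.5-fold with quantile normalization (-0.50) and scaling (-0.43). Crat, the acetyltransferase, was also lower (-0.93 ± 0.38, unadjusted p = 0.0476), a call lost in 9 of 17 alternatives, among them those without fed replicate 1 (-0.97) or 3 (-0.68) or fasted replicate 1 (-0.68) or 2 (-1.01). Cpt1a, the enzyme on the outer membrane and the brightest of the list with Cpt2, was at 0.29 ± 0.18 with overlapping groups, and Cpt1b was at -0.01 ± 0.27. With scaling Cpt1a was at 0.53 (unadjusted p = 0.00582, limma) and with quantile normalization at 0.51 (unadjusted p = 0.0102), both under 1.5-fold. Slc25a20 was at 0.37 (unadjusted p = 0.00565) and 0.27 (unadjusted p = 0.0358) in these settings, so both values depended on the scaling. Among 6 measured genes of mitochondrial iron, cluster and heme synthesis, Fech, which inserts iron into heme, was lower (-0.83 ± 0.26, unadjusted p = 0.0174), though not without fed replicate 1 or 3 (-0.75 each). Fech was at -0.59 both with scaling and with quantile normalization. The bright Iscu and Nfs1 were at -0.13 ± 0.08 and -0.07 ± 0.14. In the partner lists 1 of 6 shuttle enzymes, 1 of 12 cycling genes and 1 of 12 exchange partners were lower. So were 1 of 10 import genes, 2 of 4 acyltransferases and 1 of 6 iron and heme genes. None was higher. Over all probe sets 8.43% were lower and 2.37% higher, and of 14217 genes at 1 probe set each, 1352 were lower and 326 higher. Lists this short cannot be told apart from those shares. Pck2, Timm10b, Cpt2 and Crat did not pass with scaling or quantile normalization.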

How the data were processed

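RNA was hybridised to Affymetrix rat 230 arrays, 1 per replicate. The deposited values are linear intensities that the authors computed with dChip after normalizing to the array of median intensity, with mismatch probes as background (version not given in the sources used here). Columns were matched to samples by label, and 0 columns belonged to no sample. After 57 control probe sets were left out, 31042 remained, of which 20826 had 1 gene symbol, 436 several and 9780 none; 20758 of the single symbols were found in the GRCr8 gene table, and no symbol changed. Values under the 10th percentile (3.27) were raised to it, log2 was taken, and the groups were compared with limma 3.58.1 in R 4.3.3 (intensity trend, two-sided, Benjamini-Hochberg over all probe sets, all 6 arrays, no covariates). The floor understates the changes of dim genes. The script was tested on simulated data.

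The members and lists were chosen with earlier results of these data known. All members could be named; values on every array were given for those past both thresholds and for the shuttle, ADP/ATP and phosphate, and uncoupling lists; from each partner list, those past both thresholds and the 2 brightest were named. Further members were given array by array after their values were seen. Replicates are independent isolations. Same-numbered fed and fasted arrays did not deviate together (correlations of -0.02, 0.099 and -0.082), so the numbers were not used as pairs. Settings tried were quantile normalization, scaling to the 75th percentile, a 25th percentile floor, a pseudocount, a filter on dim probe sets, no trend, robust variance, array weights, linear means with unequal variances, a replicate block, the mean of a gene's probe sets, and leaving out each replicate. Only arrays in 2 groups of 3 were compared, and their number limits the precision. Promoters came from the RefSeq table (GRCr8), and figures were drawn with matplotlib 3.10.9.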

Additional observations from a re-analysis of the deposited data

How the results depend on the processing

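Slc25a25 was lower in all 17 alternatives and Slc25a33 in all 16 that kept it. Against 4 lower and 1 higher, lower members numbered 2 with dim probe sets left out and 3 to 6 when a replicate was left out. The number of higher members was 0 with the 25th percentile floor, with linear means, with the mean of all probe sets and in the fit with a replicate block (paired numbers), which counted 3 lower members, and 0 to 1 when a replicate was left out (Slc25a48 without fasted replicate 3, Slc25a21 without fasted replicate 2). The median log2 change of SLC25 genes was -0.060 with quantile normalization, -0.022 with scaling, and -0.32 to -0.11 without 1 replicate. The median log2 change of shuttle carriers was 0.13 and 0.16 with those scalings, and the median log2 change of ADP/ATP and phosphate carriers was -0.21, -0.11 and, with the 25th percentile floor, -0.17. The cause was not tested.

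Among named genes, signs turned in genes that did not pass. Quantile normalization gave Slc25a32 0.22, Slc25a10 0.080, Slc25a1 0.20, Slc25a18 0.18, Got2 0.10, Timm8b 0.034, Timm29 0.10 and Nfs1 0.05. Scaling gave Slc25a32 0.23, Slc25a10 0.12, Slc25a1 0.21, Slc25a18 0.23, Got2 0.21, Acly 0.085, Timm8b 0.14, Timm29 0.21, Iscu 0.11 and Nfs1 0.17. Array weights, estimated gene by gene after the default estimate failed to converge (chosen after seeing the data), gave Slc25a41 -0.26, Slc25a28 -0.33, Slc25a39 -0.012, Slc25a10 0.035, Slc25a13 -0.16, Slc25a34 0.075, Mtch1 -0.045 and Nfs1 0.083. The mean of all probe sets gave Slc25a23 0.20, Slc25a10 0.086 and Slc25a13 -0.53. Slc25a32 was 0.067 with the 25th percentile floor and 0.022 with linear means, and Slc25a41 was -0.078 with the pseudocount. Without 1 replicate the ranges crossed 0 for Slc25a37 (-0.14 to 0.60), Slc25a10 (-0.27 to 0.090), Slc25a13 (-0.19 to 0.23), Slc25a41 (-0.59 to 0.46), Slc25a32 (-0.30 to 0.16), Slc25a28 (-0.35 to 0.26), Slc25a1 (-0.15 to 0.028), Slc25a18 (-0.20 to 0.17), Slc25a39 (-0.040 to 0.081), Slc25a34 (-0.67 to 0.14), Slc25a35 (-0.56 to 0.043), Slc25a23 (-0.47 to 0.041), Ucp1 (-0.16 to 0.70), Timm29 (-0.14 to 0.050), Got2 (-0.064 to 0.0083), Mtch1 (-0.058 to 0.35), Nfs1 (-0.19 to 0.062), Vdac2 (-0.028 to 0.097) and Timm8b (-0.20 to 0.013).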
